A study of Mus musculus with 8 samples.

Results

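The genes described here make up the Stat5 and growth hormone signalling pathway as measured by microarray in the dentate gyrus, a hippocampal region where neurons continue to be born in adult mice. They were chosen by name as Stat5a, Stat5b, Stat3, Jak2, Ghr, Prlr, Socs2, Socs3, Cish and Igf1, which are 10 of the 26894 gene symbols on the array. All 25 probes that carry these symbols were taken, and 23 of them passed the filter on dim probes. The series compared male C57BL/6 mice of 8 to 9 weeks in 4 groups with 2 arrays each. Derlin-1 control mice carried the Derl1 gene flanked by loxP sites on both chromosomes (flox/flox), and Derlin-1 KO mice carried in addition Cre recombinase under the nestin promoter, which is active in neural progenitors, so that neurons and glia descended from them lose the gene. Derlin-2 control and Derlin-2 KO mice were built in the same way on the Derl2 gene, and no control group carried Cre. Both Derlins sit in the membrane of the endoplasmic reticulum and help to clear misfolded proteins.

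Growth hormone and prolactin bind the receptors encoded by Ghr and Prlr, which activate the kinase Jak2, and Jak2 phosphorylates the transcription factors Stat5a and Stat5b. Phosphorylated Stat5 enters the nucleus and switches on genes that include Igf1, the growth factor through which much of the action of growth hormone runs in the liver, and Socs2, Socs3 and Cish, whose products damp the signal at the receptor. Stat3 is a sister factor that is mainly engaged by cytokines of the interleukin-6 family. The array measures messenger RNA only, so phosphorylation and protein levels of these factors were not seen. The study connected Derlin-1 with Stat5b in neural stem cells. In cultured hippocampal stem cells of rat and mouse it reported less Stat5b RNA after knockdown of Derl1, with less protein in the rat cells. The comparison addressed here is another one, namely whether the RNA of the pathway differed between KO and control in the whole dentate gyrus of each line.

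Stat5 binds DNA at a short mirrored motif of the form TTCNNNGAA, which reads the same on both strands. RefSeq promoter windows of the GRCm38.p6 build, which run from 250 bases before a transcription start to 50 bases after it, were at hand for 9 of the 10 genes in 14 entries, and the motif was found in 3 entries. In all, 8.30% of 32851 promoter windows of the mouse hold it. The windows with the motif are shown because they belong to receptor and feedback genes of the pathway, with the motif in capitals and each written 5′ to 3′ along its gene.
Cish, chr9:107296409-107296708, plus strand: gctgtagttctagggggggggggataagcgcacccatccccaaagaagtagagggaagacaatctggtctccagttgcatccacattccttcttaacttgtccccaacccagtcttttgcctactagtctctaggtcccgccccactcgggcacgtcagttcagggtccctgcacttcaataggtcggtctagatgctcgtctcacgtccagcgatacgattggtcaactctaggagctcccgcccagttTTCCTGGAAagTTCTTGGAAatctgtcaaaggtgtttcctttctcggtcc
Socs3, chr11:117969317-117969616, minus strand: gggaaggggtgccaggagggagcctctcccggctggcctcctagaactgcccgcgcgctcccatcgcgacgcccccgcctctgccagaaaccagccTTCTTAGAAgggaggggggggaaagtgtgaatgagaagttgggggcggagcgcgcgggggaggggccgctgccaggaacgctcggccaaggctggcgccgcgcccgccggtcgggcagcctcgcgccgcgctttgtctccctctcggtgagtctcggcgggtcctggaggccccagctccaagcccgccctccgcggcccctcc
Prlr, chr15:10223656-10223955, plus strand: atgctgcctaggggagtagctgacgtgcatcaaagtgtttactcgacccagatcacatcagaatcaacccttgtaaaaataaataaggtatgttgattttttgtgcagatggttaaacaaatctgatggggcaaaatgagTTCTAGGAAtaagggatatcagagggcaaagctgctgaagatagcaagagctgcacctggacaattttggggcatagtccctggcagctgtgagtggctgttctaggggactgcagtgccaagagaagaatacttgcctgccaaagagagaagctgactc
In the Cish window the motif occurs as TTCCTGGAA and TTCTTGGAA, which begin at bases 1 and 12 counted from the start site. The Socs3 window holds TTCTTAGAA with its first base at -154 from the start, and the window of an alternative Prlr start holds TTCTAGGAA at -110. A match of letters is a description of the window and not a binding site. On chromosome 11 Stat5b, Stat5a and Stat3 are direct neighbours in this order in the RefSeq gene table.

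On each array 67.6% to 70.8% of probes stood well above background, none of the spots was saturated (0 on each array), and pairs of arrays correlated across probes with a Pearson's r of 0.987 to 0.995 in the same group and 0.988 to 0.993 for KO with control. The lines occupied separate slides, so slide and line cannot be told apart, but KO and control of a line shared their slide. The brightest Derl1 probe read 10.86 and 10.76 in Derlin-1 control and 10.56 and 10.66 in Derlin-1 KO on the normalized log2 scale, a KO difference of -0.20 (SE 0.10) that did not pass the test, and the other Derl1 probe read higher in KO by 0.46 (SE 0.12). The brightest Derl2 probe read 11.36 and 11.22 in Derlin-2 control and 10.63 and 10.65 in Derlin-2 KO, a difference of -0.65 (SE 0.10, limma adjusted p = 0.257). The position of these probes relative to the deleted parts is not given in the sources used here, so the Derl1 probes do not settle the labels of the Derlin-1 arrays. All 8 granule neuron markers, Prox1 and Calb1 among them, were well above background on all 8 arrays.

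None of the 10 genes differed between KO and control beyond the spread of the arrays. With limma and Benjamini-Hochberg adjustment over all probes tested, 0 of 10 passed an adjusted p of 0.05 in either line, and at an unadjusted p of 0.05 the count was also 0 of 10 in both lines. Over all genes 0% passed the adjusted threshold for Derlin-1 and 0.0454% for Derlin-2, and 4.25% and 4.64% passed the unadjusted one. Differences ran from -0.20 to 0.11 on the log2 scale for Derlin-1 and from -0.41 to 0.32 for Derlin-2, and no gene (0 of 10) reached a 1.5-fold change in either, a size reached by 4.11% and 4.6% of all genes. In the Derlin-1 line 4 of 10 genes had a difference above 0 with a median of -0.06, against 44% of all genes and a median of -0.02. In the Derlin-2 line 6 of 10 lay above 0 with a median of 0.04, against 52.3% of all genes and a median of 0.01. Averaged over both lines, 0 of 10 genes passed the adjusted or the unadjusted threshold (0.0151% and 4.53% of all genes), 5 of 10 lay above 0 (49.7% of all genes) and the range was -0.23 to 0.14. For the Derlin-1 effect minus the Derlin-2 effect the counts were likewise 0 of 10 (0.00505% and 4.5% of all genes), no gene (0 of 10) reached 1.5-fold (2.1% of all genes for the mean and 8.87% for the difference), and 1 of 10, Stat5a, lay above 0 (43.9% of all genes). The number of arrays limits the precision of each of these values, and nothing in the sources says whether the 2 arrays of a group came from separate mice, so that the tests measure the spread between arrays.

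**Figure D1:**
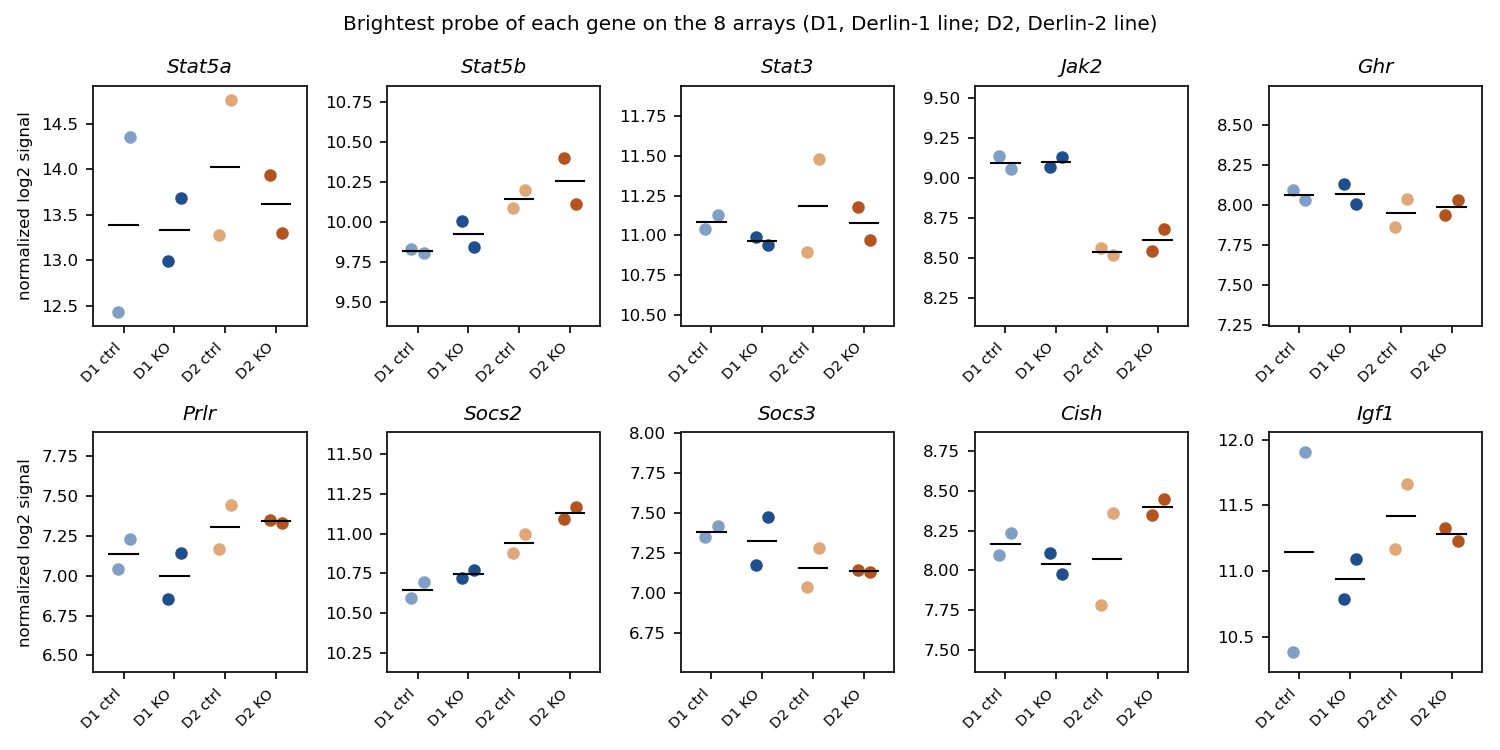
Normalized log2 signal of the brightest probe of each of the 10 genes in the 4 groups, with a point per array and a bar at the mean of the 2 arrays. The controls of Stat5a and Igf1 lie far apart, and Socs2 is the gene whose KO arrays lie above the control arrays in both lines.

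Stat5b, the form of Stat5 on which the study centred and the main mediator of growth hormone in the liver, was close in KO and control. Its probe A_55_P2031043 read 9.83 and 9.80 in Derlin-1 control, 10.002 and 9.84 in Derlin-1 KO, 10.09 and 10.20 in Derlin-2 control, and 10.40 and 10.11 in Derlin-2 KO. Both Derlin-1 KO arrays lay above both Derlin-1 controls, and the Derlin-2 groups overlapped. KO minus control was 0.11 (SE 0.13) in the Derlin-1 line, with a 95% interval of -0.22 to 0.43, or 0.861 to 1.35 times the control. In the Derlin-2 line the difference was 0.11 (SE 0.13), with an interval of -0.21 to 0.44. The mean of both lines was 0.11 (SE 0.09, interval -0.12 to 0.34), and the Derlin-1 effect minus the Derlin-2 effect was -0.01 (SE 0.19, interval -0.46 to 0.45). The lower end of the Derlin-1 interval, 0.861 times the control, concerns the whole tissue and the spread between arrays. It sets no bound across mice, since the 2 arrays of a group may not come from separate mice. What happened in a minor cell type cannot be read from these arrays. In bulk tissue fewer cells of a type and less RNA per cell cannot be told apart. In ascending order the Stat5b means were 9.82 in Derlin-1 control, 9.92 in Derlin-1 KO, 10.14 in Derlin-2 control and 10.26 in Derlin-2 KO, and the step from Derlin-1 KO to Derlin-2 control is also the step between slides. The other Stat5b probe, A_52_P663027, was well above background on 0 of 8 arrays and was not tested.

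Stat5a, best known for the prolactin response of the mammary gland, was read by 2 probes that behaved differently. The brighter, A_66_P115018, read 12.44 and 14.35 in Derlin-1 control, 12.99 and 13.69 in Derlin-1 KO, 13.28 and 14.76 in Derlin-2 control, and 13.93 and 13.30 in Derlin-2 KO. The lowest and the highest value of the Derlin-1 line were both controls, and KO overlapped control in both lines. The SD within groups was 0.92, larger than that of 99.9% of the 1638 probes within 0.5 of its mean level, whose median was 0.09. Its KO difference was -0.05 (SE 0.75) for Derlin-1 and -0.41 (SE 0.75) for Derlin-2. The 95% intervals, 0.271 to 3.42 times the control and 0.212 to 2.68 times, leave the direction unknown. Without Derlin-1 control replicate 1 the Derlin-1 difference was -1.01, and without replicate 2 it was 0.90. The probe sits in row 2 of the 384 rows of the array. Spots in the first 8 rows had a median SD of 0.16 over 844 probes, against 0.17 over the 34174 probes of the middle rows.

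The second Stat5a probe, A_55_P1990495, read 6.63 and 6.22 in Derlin-1 control, 6.53 and 6.53 in Derlin-1 KO, 6.14 and 6.32 in Derlin-2 control, and 6.44 and 6.49 in Derlin-2 KO. It was well above background on all 8 arrays. Both Derlin-2 KO arrays lay above both Derlin-2 controls, and the Derlin-1 KO arrays lay between their controls. KO minus control was 0.11 (SE 0.16, interval -0.28 to 0.50) for Derlin-1 and 0.24 (SE 0.16, interval -0.15 to 0.62) for Derlin-2. Across the 8 arrays, each taken relative to the mean of its line, the correlation between the 2 Stat5a probes was -0.49. Both probes are annotated to the same transcript, variant 1 of Stat5a, in the deposited tables, yet their means over the 8 arrays were 13.59 and 6.41. Which of them reads this transcript was not tested.

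**Figure D2:**
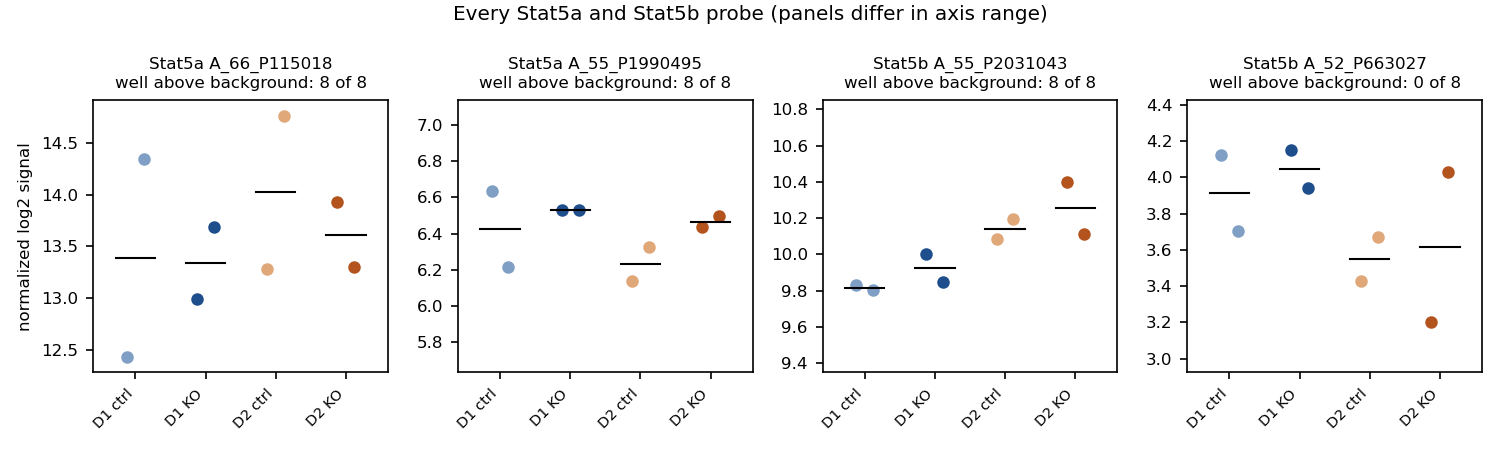
Normalized log2 signal of the 4 probes of Stat5a and Stat5b in the 4 groups, with a point per array and a bar at the group mean; axis ranges differ between panels. The first Stat5a probe spreads over 12.44 to 14.76 with overlapping groups, and the last Stat5b probe was well above background on 0 of 8 arrays.

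Igf1, the growth factor that Stat5 switches on in the liver, showed the same kind of disagreement between probes. Its brightest probe, A_55_P2085979, read 10.38 and 11.90 in Derlin-1 control, 10.79 and 11.09 in Derlin-1 KO, 11.17 and 11.66 in Derlin-2 control, and 11.33 and 11.23 in Derlin-2 KO. Here too both extremes of the Derlin-1 line were controls. The KO difference was -0.20 (SE 0.48) for Derlin-1 and -0.13 (SE 0.48) for Derlin-2, and the Derlin-1 value was 0.56 without Derlin-1 control replicate 2 and -0.97 without replicate 1. Across the 8 arrays relative to the line means this probe ran with the brighter Stat5a probe (r = 0.91) more than with the second Igf1 probe (r = 0.46). These correlations are descriptions over 8 arrays, and arrays share their hybridization and scanning.

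That second Igf1 probe, A_51_P147942, read 7.12 and 7.29 in Derlin-1 control, 7.13 and 7.39 in Derlin-1 KO, 7.15 and 7.16 in Derlin-2 control, and 7.33 and 7.15 in Derlin-2 KO. KO minus control was 0.06 (SE 0.14, interval -0.27 to 0.39) for Derlin-1 and 0.09 (SE 0.14, interval -0.24 to 0.42) for Derlin-2, with overlap in both. The third probe, A_52_P306327, was well above background on 4 of 8 arrays and passed the filter through the Derlin-1 KO group alone. It read 4.19 and 4.57 in Derlin-1 control, 4.57 and 4.83 in Derlin-1 KO, 4.80 and 3.71 in Derlin-2 control, and 3.54 and 3.29 in Derlin-2 KO. In Derlin-2 KO neither array was well above background, so the level there is only a bound and no difference is given.

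**Figure D3:**
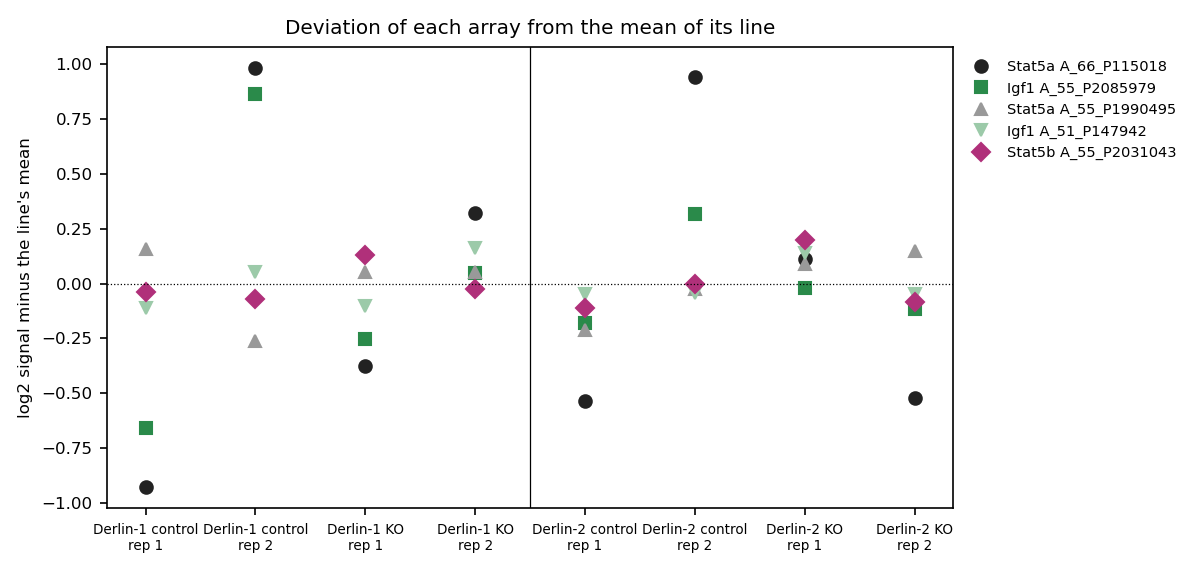
Log2 signal of 5 probes of Stat5a, Igf1 and Stat5b on each of the 8 arrays minus the mean of the 4 arrays of the line; the vertical line parts the lines. The brightest Stat5a and Igf1 probes lie far below the line mean in Derlin-1 control replicate 1 and far above it in replicate 2, and the other 3 probes lie closer to it.

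The arrays on which the brightest Stat5a probe was high were also high for many other genes. Of 18055 genes above background on all 8 arrays, 533 (2.95%) had a correlation of at least 0.9 with it over the 8 arrays relative to the line means, and the closest were 4933401L05Rik, Ndufa4l2, 5830426C09Rik, Gucy1b2 and Golgb1 at 0.99. The brightest Igf1 probe had 379 such genes (2.10%). For the second Stat5a probe there were 51 (0.282%), led by Dnal4 at 0.98. The Stat5b probe had 15 (0.0831%), led by 0610009E02Rik and Trmt61b at 0.97. With so many genes and so few arrays, high correlations arise readily, and these counts describe the arrays.

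Among the receptors and the kinase, Ghr and Jak2 had narrow intervals around 0. Ghr, the growth hormone receptor, read 8.10 and 8.03 in Derlin-1 control, 8.13 and 8.01 in Derlin-1 KO, 7.86 and 8.04 in Derlin-2 control, and 7.94 and 8.03 in Derlin-2 KO. Its KO difference was 0.00 (SE 0.11, interval -0.27 to 0.28) for Derlin-1 and 0.04 (SE 0.11, interval -0.24 to 0.31) for Derlin-2. The 3 other Ghr probes, which include probes for a second transcript variant, gave differences from -0.11 to 0.24 for Derlin-1 and from -0.12 to 0.35 for Derlin-2, with mixed signs in each.

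Jak2, the kinase bound to both hormone receptors, read 9.14 and 9.06 in Derlin-1 control, 9.07 and 9.13 in Derlin-1 KO, 8.56 and 8.52 in Derlin-2 control, and 8.54 and 8.68 in Derlin-2 KO. KO and control overlapped in each line, with differences of 0.00 (SE 0.10, interval -0.24 to 0.25) and 0.07 (SE 0.10, interval -0.18 to 0.32). The dimmer Jak2 probe gave -0.17 (SE 0.21) and -0.12 (SE 0.21). The 4 arrays of the Derlin-1 line all read above the 4 of the Derlin-2 line for the brightest Jak2 probe, a step that falls between slides.

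Prlr, the prolactin receptor, read 7.04 and 7.23 in Derlin-1 control, 6.85 and 7.14 in Derlin-1 KO, 7.17 and 7.44 in Derlin-2 control, and 7.35 and 7.33 in Derlin-2 KO. Its difference was -0.14 (SE 0.15) for Derlin-1 and 0.04 (SE 0.15) for Derlin-2. The 2 other probes gave -0.32 (SE 0.18) and -0.35 (SE 0.17) for Derlin-1 and 0.07 (SE 0.18) and 0.04 (SE 0.17) for Derlin-2. All 3 Prlr probes were thus below 0 for Derlin-1 and above 0 for Derlin-2, where the brightest turned to -0.01 with normexp background correction, and none passed the test in either. Prlr is abundant in the choroid plexus, a tissue that borders the hippocampus, and the mean signal of 12 of 13 choroid plexus markers (Slc4a5 was not tested), in which Enpp2 weighs most, overlapped between KO and control, at 9.35 to 9.50 against 9.30 to 9.56 for Derlin-1 and 9.36 to 9.72 against 9.27 to 9.89 for Derlin-2. Ttr, the marker that defines this tissue, was well above background on all 8 arrays and ranged from 7.64 to 11.70. In the Derlin-1 line it read 7.64 and 8.85 in control and 9.03 and 9.30 in KO, Kcne2, Kcnj13 and Aqp1 were also higher in KO without overlap, Kl and Tmem72 were lower, and 8 of 12 markers lay above 0 with a median of 0.27. For Derlin-2 it was 8 of 12 with a median of 0.20, beside 44% of all genes above 0 for Derlin-1 and 52.3% for Derlin-2. Over all genes, KO was higher without overlap for 16.2% and lower for 17.9% in the Derlin-1 line. The part of this tissue in the Prlr values was not tested.

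Among the 10 genes, each read on its brightest probe, Socs2 was the only one whose KO arrays lay above the controls in both lines. Socs2, which limits growth hormone signalling and whose loss causes gigantism in mice, read 10.60 and 10.698 in Derlin-1 control, 10.72 and 10.77 in Derlin-1 KO, 10.88 and 11.00 in Derlin-2 control, and 11.09 and 11.17 in Derlin-2 KO. The gap between the highest control and the lowest KO array was small in each line. The differences were 0.10 (SE 0.10, interval -0.15 to 0.35) in the Derlin-1 line and 0.19 (SE 0.10, interval -0.06 to 0.44; limma adjusted p = 0.977) in the Derlin-2 line. Averaged over both lines, the Socs2 difference was 0.14 (SE 0.07, interval -0.03 to 0.32), which did not pass the test. Its 3 other probes were above 0 in the Derlin-1 line, from 0.03 to 0.11, but in the Derlin-2 line they were at 0.05, -0.18 and -0.16. The mean of the 4 Socs2 probes in the Derlin-2 line was -0.02.

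Cish, the inhibitor first found as an immediate target of cytokine-activated Stat5, read 8.10 and 8.24 in Derlin-1 control, 8.11 and 7.98 in Derlin-1 KO, 7.78 and 8.36 in Derlin-2 control, and 8.34 and 8.45 in Derlin-2 KO. The Derlin-2 control of 7.78 stood apart, and groups overlapped in both lines. The difference was -0.13 (SE 0.20, interval -0.61 to 0.36) in the Derlin-1 line and 0.32 (SE 0.20, interval -0.16 to 0.81; limma adjusted p = 0.988) in the Derlin-2 line. The Derlin-1 effect minus the Derlin-2 effect was -0.45 (SE 0.28, adjusted p = 0.903). With Derlin-2 control replicate 1, the array at 7.78, left out, Cish differed by 0.03 for Derlin-2 and by -0.16 between the lines. Leaving out replicate 2 instead gave 0.61 and -0.74.

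Socs3, the inhibitor of receptors of the interleukin-6 family, read 7.35 and 7.42 in Derlin-1 control, 7.17 and 7.47 in Derlin-1 KO, 7.03 and 7.28 in Derlin-2 control, and 7.14 and 7.13 in Derlin-2 KO. Its differences were -0.06 (SE 0.14) and -0.02 (SE 0.14) with overlapping groups, and the sign of the first turned with the scaling of the arrays. Stat3 read 11.04 and 11.13 in Derlin-1 control, 10.99 and 10.94 in Derlin-1 KO, 10.89 and 11.48 in Derlin-2 control, and 11.18 and 10.97 in Derlin-2 KO. Both Derlin-1 KO arrays lay below both controls, by 0.12 on average, and the Derlin-2 groups overlapped. The differences were -0.12 (SE 0.20, interval -0.61 to 0.37) and -0.11 (SE 0.20, interval -0.60 to 0.38). A dimmer Stat3 probe, A_55_P1991219, gave -0.44 (SE 0.21, interval -0.96 to 0.08) in the Derlin-1 line, again with both KO arrays below both controls, and -0.10 (SE 0.21) in the Derlin-2 line. The third Stat3 probe was well above background on 3 of 8 arrays and was not tested.

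Counted over the 10 genes, KO and control did not overlap for 3 in the Derlin-1 line, where Stat5b and Socs2 were higher and Stat3 was lower, and for 1 in the Derlin-2 line, where Socs2 was higher. Over all genes this held for 34.1% for Derlin-1 and 32.6% for Derlin-2, so neither count stood above the background. With the second probes of Stat5a and Igf1, a choice made after their replicates were seen, the counts were 3 and 2.

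**Figure D4:**
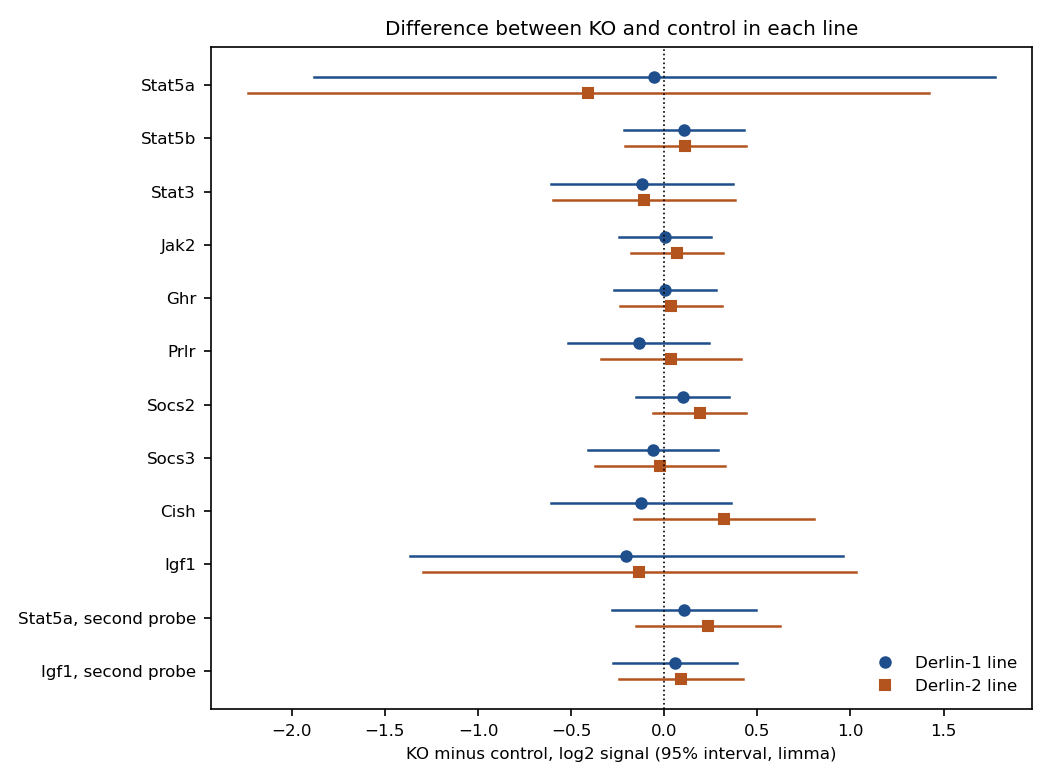
KO minus control in log2 signal for the brightest probe of each gene and for the second probes of Stat5a and Igf1, with 95% intervals from limma; circles stand for the Derlin-1 line and squares for the Derlin-2 line. Every interval spans 0, and those of the brightest Stat5a and Igf1 probes are the widest.

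Beyond these genes, 81 others of the pathway were listed by role, from hormones and cytokines through receptors, kinases and adaptors to inhibitors and targets. Of these, 75 were tested, and Gh, Epo, Il6, Tslp, Igfals and Osm were not, since no group had both arrays well above background. In each line 0 of 75 passed the adjusted threshold, and at an unadjusted p of 0.05 limma gave 0 for Derlin-1 and 3 (Ghrhr, Ghsr and Socs1) for Derlin-2, beside 4.25% and 4.64% of all genes, so that neither count stood above the background. Ghsr was well above background on 0 arrays of Derlin-2 KO, so its level there is only a bound, also where it is counted as lower. The medians were -0.02 and 0.02, beside -0.02 and 0.01 in all genes. KO and control did not overlap for 28 of 75 in the Derlin-1 line (13 higher, 15 lower) and for 25 of 75 in the Derlin-2 line (17 higher, 8 lower), against 16.2% of all genes higher and 17.9% lower in the first and 17.9% higher and 14.6% lower in the second. Some genes named below lay on the same side without overlap in both lines. The share of all genes that did so was not computed.

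Among the receptors, 5 of 14 lay above 0 for Derlin-1 and 4 of 14 for Derlin-2, with medians of -0.09 and -0.06, beside 44% and 52.3% of all genes above 0. Cntfr, the receptor of ciliary neurotrophic factor, read 9.30 and 9.49 in Derlin-1 control, 9.29 and 9.03 in Derlin-1 KO, 10.02 and 10.46 in Derlin-2 control, and 10.01 and 9.52 in Derlin-2 KO. Both KO arrays lay below both controls in each line, with differences of -0.24 and -0.47 (SE 0.23 each; adjusted p = 0.962 in the Derlin-2 line), and the mean of its probes gave 0.12 for Derlin-1. Ghrhr, the receptor of growth hormone releasing hormone, was at 4.11 and 4.13 in Derlin-2 control and 4.58 and 5.19 in Derlin-2 KO, a difference of 0.77 (SE 0.22, adjusted p = 0.694). These signals are dim, and the mean of its probes gave -0.22. Csf2rb, the shared chain of the receptors for interleukin-3 and related cytokines, differed by -0.61 in the Derlin-2 line with an SE of 0.94, and its replicates lay far apart at 9.38 and 12.03 in Derlin-1 control. Il7r, the interleukin-7 receptor, had a difference of -0.29 (SE 0.30) for Derlin-1.

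In the insulin-like growth factor axis, Igf1r, the receptor of Igf1, read 9.89 and 9.96 in Derlin-1 control, 9.82 and 9.79 in Derlin-1 KO, 9.86 and 10.09 in Derlin-2 control, and 9.77 and 9.74 in Derlin-2 KO. KO was below control without overlap in each line, with differences of -0.12 (SE 0.11) and -0.22 (SE 0.11; adjusted p = 0.970), and the mean of its probes gave 0.08 for Derlin-1. Igfbp2, which binds and carries the growth factors, was likewise below control in both, with differences of -0.20 and -0.19 (SE 0.12 each). Igfbp6 differed by -0.34 (SE 0.20) for Derlin-1. Igf1r and Igfbp2 were named here after their values were seen. Over the axis, 7 of 11 genes lay above 0 in each line (44% and 52.3% of all genes).

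The 3 other Janus kinases, Jak1, Jak3 and Tyk2, had differences from -0.07 to 0.01 for Derlin-1 and from 0.00 to 0.36 for Derlin-2. All 5 adaptors were above 0 in the Derlin-1 line, with a median of 0.04 (44% of all genes), and 3 of 5 in the Derlin-2 line (52.3%). Sh2b2, an adaptor that binds Jak2, had the largest of these differences at 0.30 (SE 0.21).

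Inhibitors and phosphatases lay above 0 in 10 of 14 genes in the Derlin-2 line (52.3% of all genes) and in 5 of 14 in the Derlin-1 line (44%). Socs6 had KO above control without overlap in both lines, as Socs2 did, a feature noticed after its values were seen. Its KO arrays read 9.45 and 9.34 against 9.31 and 9.30 in control for Derlin-1, and 9.31 and 9.42 against 9.28 and 9.22 for Derlin-2. Socs1, an inhibitor that blocks the kinases directly, read 6.98 and 6.91 in Derlin-1 control, 6.88 and 6.86 in Derlin-1 KO, 6.83 and 6.79 in Derlin-2 control, and 7.20 and 7.17 in Derlin-2 KO. In the Derlin-2 line both KO arrays lay above both controls, with a difference of means of 0.37 (SE 0.09, adjusted p = 0.582), and in the Derlin-1 line the difference was -0.08 (SE 0.09). The other inhibitors ranged from -0.29 to 0.14 in the Derlin-1 line.

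Genes known as targets of Stat5 elsewhere were above 0 in 7 of 10 in the Derlin-2 line (52.3% of all genes), with a median of 0.15, and in 4 of 10 in the Derlin-1 line (44%), with a median of -0.05. KO was higher without overlap for Mcl1, Pim1, Ccnd1, Ccnd2, Myc and Bcl6 in the Derlin-2 line, 6 of 10 against 17.9% of all genes. None passed the test. The list holds targets without regard to whether Stat5 raises or lowers them, so these counts give no measure of Stat5 activity. Myc, a growth regulator, read 6.55 and 6.63 in Derlin-2 control and 6.93 and 6.92 in Derlin-2 KO, and Ccnd1, a cyclin of the cell cycle, 10.81 and 10.87 against 11.05 and 11.02. Bcl6, a repressor of transcription that Stat5 also regulates, read higher in KO in both lines, by 0.27 and 0.17 (SE 0.14 each). In the same Derlin-2 arrays the mean signal of the 8 markers of newborn neurons and progenitors, with Mki67, Top2a and Eomes among them, was 9.68 to 9.93 in control and 10.10 to 10.11 in KO, and 8 of 8 markers lay above 0 with a median of 0.41. In the Derlin-1 line the groups overlapped, at 9.89 to 10.31 in control and 9.89 to 10.10 in KO. There the difference was -0.11, and 2 of 8 markers lay above 0 (44% of all genes). By cell counts in stained tissue, the study found no significant difference in labelled dividing cells or labelled immature neurons between Derlin-2 KO and control mice. In Derlin-1 KO mice it counted more of both than in control. Those are counts of cells and not RNA levels. Several of these targets are also genes of dividing cells, and the part of cell number in their values was not tested.

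Targets of Stat3 had medians of -0.04 and -0.03. Gfap, the intermediate filament of astrocytes, read 13.10 and 13.03 in Derlin-1 control and 13.31 and 13.43 in Derlin-1 KO, a difference of 0.30 (SE 0.14), while the mean signal of the 8 astrocyte markers was 15.01 to 15.05 in control and differed by -0.06, without overlap of the groups. The brightest Gfap probe lies in row 375 of the 384 rows of the array. Probes in the last 48 rows had a median SD of 0.18 over 4983 probes, against 0.17 over the 34174 probes of the middle rows. Fgl2, a secreted protein of immune cells, had differences of 0.48 (SE 0.28) for Derlin-2 and -0.30 (SE 0.28) for Derlin-1.

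**Figure D5:**
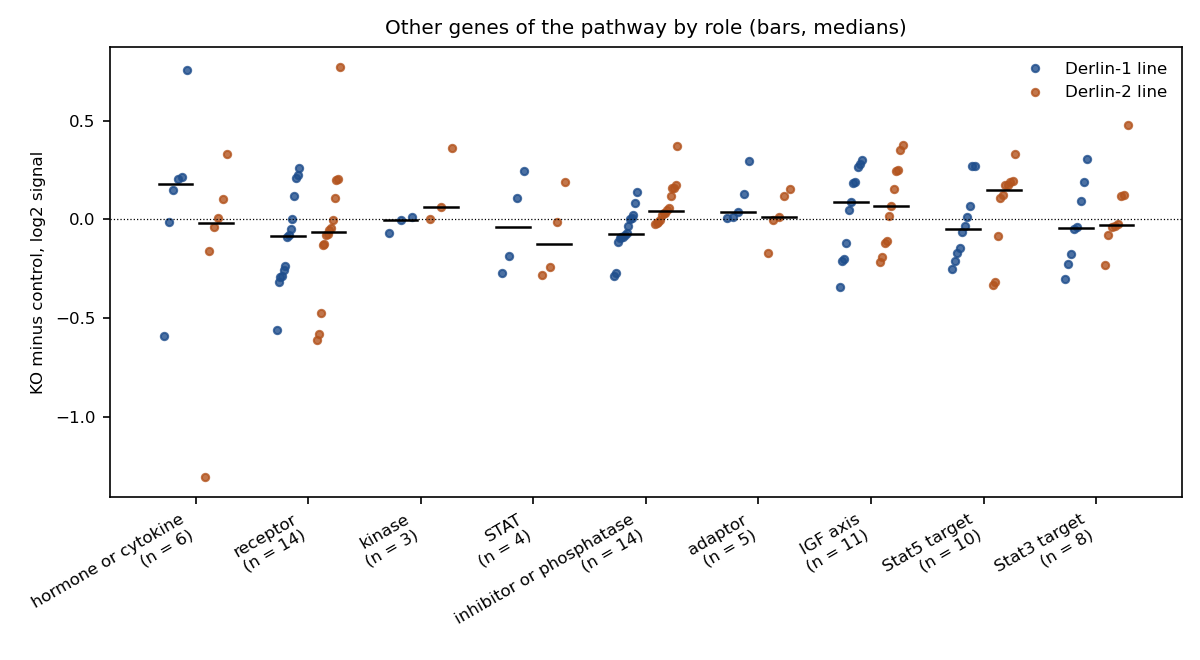
KO minus control in log2 signal for the 75 other pathway genes tested, by role, with a point per gene (left, Derlin-1 line; right, Derlin-2 line) and a bar at the median. The medians lie between -0.13 and 0.18, and the lowest point, Ghrl at -1.31 in the Derlin-2 line, rests on a single control array because the other spot bore an outlier flag.

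Marker lists of other cell types were read on the same arrays as the log2 of their mean signal. KO and control did not overlap for 34.1% of all genes for Derlin-1 and 32.6% for Derlin-2. Above 0 lay 44% and 52.3% of all genes. These shares are for single genes and not for lists. In the Derlin-1 line KO lay below control without overlap for microglia (12.10 to 12.14 in control, with 0 of 10 markers above 0 and a difference of -0.15) and astrocytes (2 of 8 above 0), and above it for interneurons (13.54 to 13.72 against 13.37 to 13.44, with 6 of 8 above 0). In the Derlin-2 line KO lay below control for interneurons (13.66 to 13.69 against 13.88 to 13.95, with 1 of 8 above 0) and blood (13.89 to 13.92 against 13.98 to 14.18, with 0 of 3 above 0). Blood overlapped in the Derlin-1 line, at 13.35 to 13.47 in KO against 13.29 to 14.45 in control. There too 0 of 3 markers lay above 0, and the difference was -0.46. The mean signal also lay below control for meninges and fibroblasts (10.05 to 10.51 against 10.59 to 10.80) and astrocytes (15.07 to 15.16 in control, with a difference of -0.14), but 4 of 7 meningeal markers lay above 0 with a median of 0.17, and 4 of 8 astrocyte markers with a median of -0.04, so these means follow their brightest markers. Choroid plexus, endothelium, oligodendrocytes, granule neurons and CA pyramidal neurons overlapped in both lines. Igf1 is made by interneurons and microglia, and the part of these cell types in its values was not tested.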

How the data were processed

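Expression was measured on 8 one-colour Agilent SurePrint G3 mouse arrays with Cy3-labelled RNA, and groups were taken from the sample titles because the genotype field of the KO samples does not name the deletion. The scanner files deposited by the authors give spot intensity after background subtraction by Agilent Feature Extraction 10.7.1.1, with flags, and the authors' deposited tables hold log2 values normalized in GeneSpring (used as an alternative only) beside fold changes and their direction, which were not used. Gene symbols came from these tables. After a floor of 1 and a log2 transformation, the 8 arrays were quantile-normalized without outlier spots, and a probe was tested where some group had both of its arrays well above background (40001 of 56605 probes, 19922 symbols). The brightest probe stood for a gene. Limma 3.58.1 (R 4.3.3) fitted 4 group means with 4 residual and 2.08 prior degrees of freedom, and p-values were two-sided and adjusted by Benjamini-Hochberg over all probes at 0.05. Intervals are at 95%. The code was run on simulated arrays in which probes varied independently of one another. Deviations on the real arrays were shared by many genes, so that run checks the code and not the error rates of the test here. Pathway genes were named by rule, up to 3 per line and direction with the largest difference among those whose groups did not overlap, and some that the rule named are not reported here. The members, the lists and the tests were chosen with earlier results of these data known. Alternatives were 75th percentile scaling, normexp background correction (offset 50, on the median spot signal, since mean signals are not among the columns used), the deposited log2 values, other filters, the mean of a gene's probes, the last eighth of rows left out, a replicate block and each array left out.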

Additional observations from a re-analysis of the deposited data

Results flagged for a closer look

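Socs1 was flagged because both KO arrays lay below both controls in the Derlin-1 line and above them in the Derlin-2 line. The Derlin-1 effect minus the Derlin-2 effect was -0.45 on the log2 scale (SE 0.13), and in limma the test of this difference gave an adjusted p of 0.743. The third Igf1 probe was flagged for the opposite pattern, KO above control in the Derlin-1 line and below it in the Derlin-2 line. The value flagged, the Derlin-1 effect minus the Derlin-2 effect, was 1.16, with signal well above background on 4 of 8 arrays. The probe passed the filter through Derlin-1 KO alone and was well above background on 0 arrays of Derlin-2 KO. Its level there is only a bound, so the 1.16 does not measure a difference between the lines and the pattern is not established. No test of this value is given, because the probe was selected through the group with its highest mean.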

How the results depend on the processing

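No gene of the 10 and no named pathway gene passed the threshold in limma under any alternative (0 of 740 values, smallest adjusted p 0.190). Of 388 differences under the alternatives that kept all arrays, 20 changed sign, and of 352 with an array left out, 27 did. The cause was not tested. With 75th percentile scaling, with the deposited log2 values and with the second probes of Stat5a and Igf1, 2 genes did not overlap in the Derlin-2 line in place of 1. With a 1.5-fold rule in place of the test, 2 pathway genes were called for Derlin-1, 3 for Derlin-2, 3 for the difference of the lines and 2 for their mean, of 75 each, beside 4.11%, 4.6%, 8.87% and 2.1% of all genes. Scaling to the 75th percentile turned Socs3 (0.042) and Socs1 (0.049) in the Derlin-1 line and the line difference of Stat5b (0.0019), the deposited values turned Socs3 (0.022) and Socs1 (0.029) in the Derlin-1 line, and normexp turned Prlr in the Derlin-2 line (-0.013). The mean of a gene's probes turned Stat5a (0.027), Jak2 (-0.082), Igf1 (0.058), Cntfr (0.12) and Igf1r (0.080) for Derlin-1, Jak2 (-0.026), Socs2 (-0.025) and Ghrhr (-0.22) for Derlin-2 and the line difference of Igf1 (0.35). The second probe, chosen after seeing the data, turned Stat5a to 0.11 and Igf1 to 0.057 for Derlin-1, Stat5a to 0.24 and Igf1 to 0.091 for Derlin-2, and the line difference of Stat5a to -0.13.

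With 1 array left out, a group holds a lone array, which is assumed to vary like the others and overlaps less easily. In these fits 6 to 8 genes did not overlap for Derlin-1 and 2 to 9 for Derlin-2. Those counts have no background to compare with, since the share of all genes without overlap under the same omissions was not computed. Derlin-1 differences then ran from -1.01 to 0.90 for Stat5a, -0.97 to 0.56 for Igf1, -0.056 to 0.066 for Ghr, -0.037 to 0.042 for Jak2, -0.28 to 0.0089 for Prlr, -0.21 to 0.090 for Socs3 and -0.65 to 0.044 for Fgl2. Derlin-2 differences ran from -1.15 to 0.33 for Stat5a, -0.38 to 0.11 for Igf1, -0.053 to 0.12 for Ghr, -0.10 to 0.17 for Prlr, -0.14 to 0.098 for Socs3, -0.40 to 0.18 for Stat3 and -0.029 to 0.26 for Stat5b. The line differences ran from -0.60 to 1.31 for Stat5a, -0.83 to 0.69 for Igf1, -0.15 to 0.14 for Stat5b and -0.74 to -0.16 for Cish, whose Derlin-2 difference ran from 0.03 to 0.61.

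Arrays with the same replicate number had deviations that correlated at 0.27 for Derlin-1 and -0.10 for Derlin-2, so the numbers were not taken as pairs. With the replicate block 0 of 10 genes and 0 of 75 pathway genes passed in each line, and it changed no other call.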
